A study of Homo sapiens with 24 samples.

Results

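RNA bound to heavy polysomes was compared with total RNA in OVCAR-3 cells that had received no INK128, on 12 of the 24 arrays of the study. The 12 arrays were taken by their labels, 7 with polysome RNA and 5 with total RNA, and treatment was kept as a covariate. OVCAR-3 is an established line of platinum-resistant high-grade serous ovarian cancer. The polysome arrays were 3 from cells with the vehicle DMSO (dmso_poly_rep1 to dmso_poly_rep3) and 4 from cells with 1 µM carboplatin for 5 h (carbo_poly_rep2, carbo_poly_rep3, carbo_poly_022_rep2 and carbo_poly_102_rep3). The total RNA arrays were 2 with DMSO (dmso_total_rep1 and dmso_total_rep2) and 3 with carboplatin (carbo_total_rep2, carbo_total_rep3 and carbo_total_101_rep1). What the additional code in some of these labels stands for is not given in the sources used here. The arrays labelled carbo_poly_rep1 and carbo_total_rep1 were not among the 12, and in the study's own datasets their values stand under total RNA of the combination of carboplatin and INK128. Each condition was grown on 3 plates. Every sample was exposed to cycloheximide before lysis, so that ribosomes stayed on their mRNAs. Polysome RNA was pooled from gradient fractions 7 to 14, where an mRNA carries at least 4 ribosomes, and total RNA came from an aliquot of the same lysate.

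An mRNA that initiates often carries many ribosomes and sediments with the heavy fractions, whereas an mRNA that is repressed, short or held in the nucleus is found among the light fractions or not on ribosomes at all. Noncoding RNAs have no long reading frame and are therefore largely missing from heavy polysomes. The mRNAs of ribosomal proteins and elongation factors begin with a 5′ terminal oligopyrimidine (TOP) tract, through which the kinase mTOR controls their translation, and mRNAs such as ATF4 carry short upstream reading frames (uORFs) that hold back translation of the main frame in unstressed cells.

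Signals were log2 values after quantile normalization, so a difference is a share relative to the other RNAs of that fraction and not an amount of RNA per cell. Fewer copies on polysomes and a larger pool outside them cannot be told apart on this scale. Of 14 markers of ovarian and epithelial cells 12 were measured, from 4.68 to 12.3 in log2 signal, and 11 of them passed the filter on low signals. None of 3 measured fibroblast and 3 measured endothelial markers passed, and the highest lay at 6.61 and 6.58. Of 2 measured leukocyte markers CD68, a lysosomal protein of macrophages that other cells also express, passed at 8.94 to 9.88, and CD14 did not, at 4.09 to 4.69. For 7442 genes whose mean signal reached at least 6.54, polysome RNA was set against total RNA with limma and Benjamini-Hochberg adjustment, with a threshold of 0.05.

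The array dmso_poly_rep1 stood apart from the other polysome arrays. Each array was set against the difference between the polysome and total arrays other than itself, as a correlation across genes, which are not independent replicates. The other 6 polysome arrays gave correlations of 0.43 to 0.83 and the 5 total arrays −0.40 to −0.69, while dmso_poly_rep1 gave −0.11. The mean log2 signal of 24 noncoding RNAs and snoRNA host genes was 8.47 on this array, between 7.78 to 7.99 on the other polysome arrays and 8.79 to 9.08 on the total arrays. Counts are therefore given over all 12 arrays, as the labels have them, and again without this array where they moved.

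**Figure D1:**
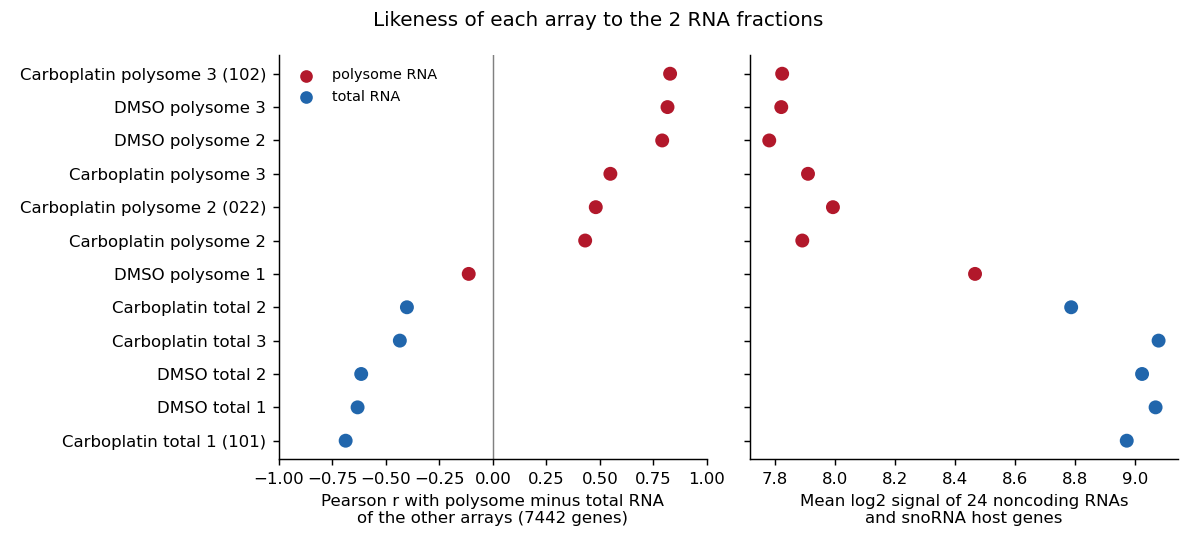
Left, Pearson correlation across 7442 genes of each array (deviation from the midpoint of both fractions) with the polysome minus total RNA difference of the other arrays. Right, mean log2 signal of 24 noncoding RNAs and snoRNA host genes on each array. Red points are polysome arrays and blue points total arrays, and DMSO polysome 1 lies between the groups in both panels, at −0.11 and 8.47.

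Of the 7442 genes, 3049 differed between the fractions, a background of 41% called in either direction. Among them 2147 were higher on polysomes (28.8% of all genes tested) and 902 were lower (12.1%). With a log2 difference of at least 0.6, 482 genes were higher (6.48%) and 367 were lower (4.93%). The 7 polysome arrays all lay above the 5 total arrays for 1071 genes (14.4%), and all below them for 273 (3.67%). The median log2 difference of all genes tested was 0.11. Centring each array on its median moved that median to 0.00 and the calls to 1373 higher and 1363 lower, so that the excess of higher over lower calls depended on the scaling. Differences below are best read against the median of 0.11. Counts of called genes over the 12 arrays are best read against the 28.8% higher and 12.1% lower of all genes.

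Without dmso_poly_rep1, 2439 genes were higher (32.8%) and 1178 were lower (15.8%), and 2114 of the 2147 and 893 of the 902 calls were retained. Counts given below without this array are best read against these shares of 32.8% and 15.8%. The array was set apart because its values lay nearer to total RNA, so a gain in calls without it follows from that choice. All other arrays are shared by both fits, so the retained calls are no independent check. In the study's datasets 5 of the polysome arrays are matched with a total RNA array. Of the 2147 higher genes, 88.4% to 99.7% were above 0 in each of the 5 pairs, and of the 902 lower genes 83.4% to 100% were below 0, with the lowest share in both directions in the pair of dmso_poly_rep1. The pairs consist of arrays that also gave the calls. High shares therefore follow from the selection and describe only how the pairs differ.

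The gene class set the clearest divide. Of 159 long noncoding RNAs (lncRNAs) by RefSeq annotation, 80 were lower on polysomes and 3 were higher, with a median log2 difference of −0.37, and without dmso_poly_rep1 95 were lower and 4 higher. Of 7039 protein-coding genes, 764 were lower and 2129 were higher, with a median of 0.12, and without that array 1020 were lower and 2417 higher. Of 92 transcribed pseudogenes, 31 were lower and 6 were higher, with a median of −0.21. All 7 small Cajal body RNAs were lower, with a median of −1.10. Genes other than protein-coding ones made up 5.42% of the genes tested, 15.3% of those lower on polysomes and 0.838% of those higher.

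**Figure D2:**
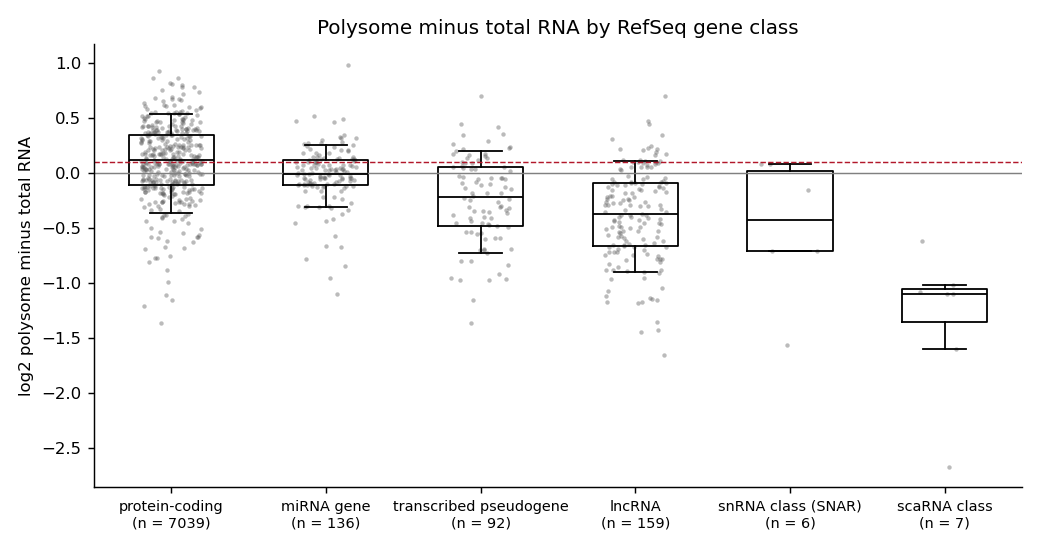
Log2 polysome minus total RNA by RefSeq gene class over the 12 arrays. Boxes show the quartiles and median, whiskers the 10th and 90th percentiles, points single genes (a random subset for protein-coding), and the dashed line the median of all genes, 0.11. The medians fall from 0.12 in protein-coding genes to −0.37 in lncRNAs and −1.10 in small Cajal body RNAs.

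The RNA with the lowest difference was SCARNA7, a small Cajal body RNA that guides modification of spliceosomal RNA in the nucleus. Its log2 signal was 8.55 and 9.43 on the DMSO total arrays and 8.26, 7.99 and 7.96 on the carboplatin total arrays, in the order given above, against a lowest of 5.53, a median of 5.75 and a highest of 6.04 on the polysome arrays. The groups were far apart, and dmso_poly_rep1 was no exception at 6.04. The difference was −2.67 ± 0.17 (SE, limma, adjusted p = 8e-07), or 6.37-fold lower on polysomes. SCARNA2 (−1.60), SCARNA16 (−1.10), SCARNA4 (−1.10), SCARNA17 (−1.08), SCARNA12 (−1.01) and SCARNA22 (−0.61) were lower as well. RMRP, the RNA of the endonuclease RNase MRP, was lower by 1.49 ± 0.17 on the log2 scale (adjusted p = 7.76e-05), and RPPH1, the RNA of RNase P, had a log2 difference of −1.30. With these 2 RNAs, 9 of 9 tested members of the list of small noncoding RNAs were lower.

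MALAT1, an abundant lncRNA of nuclear speckles, had log2 signals of 11.17 and 10.68 on the DMSO total arrays and 9.38, 10.07 and 10.92 on the carboplatin ones. On the polysome arrays it ranged from 7.88 to 9.89 with a median of 8.86, and the value of 9.89 belonged to dmso_poly_rep1. The ranges overlapped only through that array, and the difference was −1.65 ± 0.27 (adjusted p = 0.000448), or −1.77 without it. Of 7 tested members of the list of long noncoding RNAs, 6 were lower and 0 were higher. CYTOR (−0.89), NORAD (−0.81), an RNA that binds Pumilio proteins in the cytoplasm, UCA1 (−0.78), DANCR (−0.71) and MIR31HG (−0.61) were the others, and HCG18 (−0.12) did not pass.

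Host genes of small nucleolar RNAs (snoRNAs) are spliced and exported but yield no long protein. Of 8 tested, 7 were lower and 0 higher, with a median of −0.95. GAS5 had log2 signals of 8.91, 8.88, 9.0, 9.66 and 9.32 on the 5 total arrays and of 7.36 to 8.37 on the polysome arrays, with a median of 7.70. All polysome arrays lay below all total arrays, and the difference was −1.44 ± 0.17 (adjusted p = 8.3e-05). SNHG5 (−1.18), SNHG15 (−1.17), ZFAS1 (−1.12), SNHG16 (−0.78), SNHG8 (−0.77) and SNHG20 (−0.45) were also lower, while SNHG17 (−0.33) did not pass over the 12 arrays but did without dmso_poly_rep1 (adjusted p = 0.0124). ZNF667-AS1 (−1.35), an antisense lncRNA, and CHASERR (−1.42), an lncRNA next to CHD2 that was named after its value was seen, were also lower.

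The noncoding RNAs had unlike differences in the pair of dmso_poly_rep1 and dmso_total_rep1. Small noncoding RNAs had a median difference of −1.22 in this pair, within −1.26 to −1.10 in the other 4 pairs. In contrast, snoRNA host genes had a median of −0.25 here against −1.29 to −0.83 elsewhere, and the listed long noncoding RNAs −0.02 against −0.99 to −0.56. ZFAS1 differed by −0.03 in this pair and GAS5 by −0.54, whereas SCARNA7 differed by −2.51, SCARNA2 by −1.79 and RMRP by −1.46. Among mRNAs, SEC11C differed by −1.80 in this pair, and RPS26 by −0.05 and SAT1 by −0.12. The array thus resembled total RNA for some sets and polysome RNA for others, and the reason was not tested.

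Among protein-coding genes, the lowest differences belonged to AP1AR (−1.86 ± 0.18), a regulator of AP-1 vesicle traffic, and SEC11C (−1.82 ± 0.25), a catalytic subunit of the signal peptidase complex. AP1AR had log2 signals of 9.93, 9.96, 9.66, 10.00 and 10.02 on the total arrays and a lowest, median and highest of 7.57, 7.81 and 8.60 on the polysome arrays, so the groups were separate (adjusted p = 3.77e-05). SEC11C lay between 9.49 and 9.79 on total arrays and between 6.90 and 9.07 on polysome arrays, with the value of 9.07 on carbo_poly_rep2 (adjusted p = 0.000171). SNX16 (−1.71), a sorting nexin of endosomes, METTL9 (−1.59), a protein histidine methyltransferase, BBIP1 (−1.51), a subunit of the ciliary BBSome, and CNEP1R1 (−1.45), a regulator of a nuclear envelope phosphatase, followed. METTL9 was high in total RNA, at 11.07 to 11.42, and still reached 9.12 to 10.28 on polysomes. ZNG1A (−1.51) and the small RNA SNAR-B1 (−1.56) also belonged to the 12 lowest, but both have near-identical copies in the genome that the probes may not separate. The members of the SNAR family did not move together: SNAR-C1 (−0.70) and SNAR-D (−0.70) were lower, and SNAR-G1 (0.08), SNAR-G2 (−0.15) and SNAR-I (0.09) did not pass.

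At the other end, INTS5, a subunit of the Integrator complex, had the highest difference. Its log2 signal was 6.76, 6.36, 6.50, 6.66 and 6.35 on the total arrays and had a lowest, median and highest of 7.52, 7.67 and 8.10 on the polysome arrays. No polysome array fell into the range of the total arrays, and the difference was 1.23 ± 0.12 (adjusted p = 3.77e-05), or 2.34-fold higher. CDC25C, the phosphatase that activates CDK1 at entry into mitosis, had 6.96, 7.19, 5.80, 6.39 and 6.62 in total RNA and 7.20 to 8.23 on polysomes, with a difference of 1.14 ± 0.19 (adjusted p = 0.000448). The highest total array and the lowest polysome array nearly touched, at 7.19 and 7.20, and both DMSO arrays were above the carboplatin arrays in total RNA.

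The other genes among the 12 highest were spread over metabolism, membranes and RNA modification. DHRS13 (1.08), a predicted short-chain dehydrogenase, HPS6 (1.07), a subunit of the lysosome-related BLOC-2 complex, CD320 (1.05), the receptor for transcobalamin, HSD17B10 (1.04), a mitochondrial dehydrogenase that is also part of mitochondrial RNase P, and PGAP3 (1.04), which remodels lipids of GPI anchors, had non-overlapping groups. GRWD1 (1.03), a factor of ribosome biogenesis, had 8.01 to 8.31 in total RNA and 8.99 to 9.35 on polysomes with an SE of 0.09 for the difference. CDK5RAP1 (1.02) and CTU1 (1.01), which add sulfur-containing groups to tRNAs, were higher as well. RAB11FIP4 (1.03), a Rab11 effector, was the exception in spread, with total values from 6.73 on carbo_total_rep2 to 8.59 on dmso_total_rep1, although its pair differences lay between 0.70 and 1.13. The carboplatin arrays without a code were lowest in both fractions. Polysome values were 7.73 on carbo_poly_rep2 and 7.83 on carbo_poly_rep3, against 9.06 to 9.29 on the others. The total value was 6.99 on carbo_total_rep3, against 8.01 to 8.59 on the coded and DMSO arrays.

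**Figure D3:**
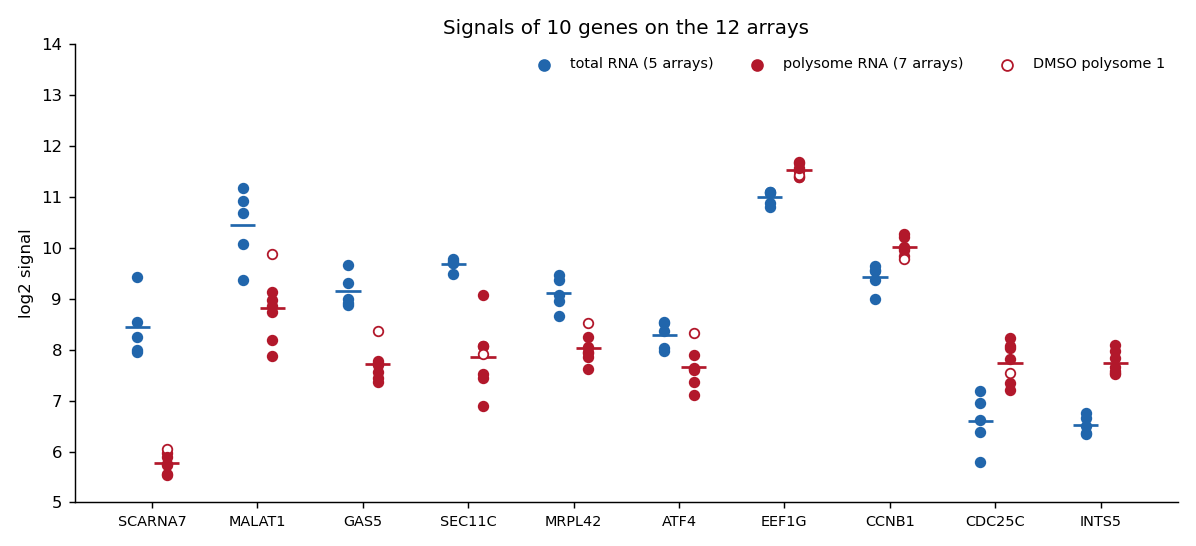
Log2 signals of 10 genes on each of the 12 arrays, with total RNA in blue, polysome RNA in red, the open circle marking DMSO polysome 1 and lines marking group means. SCARNA7, GAS5, SEC11C, MRPL42, EEF1G, CCNB1, CDC25C and INTS5 have separate groups, whereas MALAT1 and ATF4 overlap.

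Ribosomal protein genes and other TOP mRNAs had medians of opposite sign, −0.13 and 0.28, and no test compared them. Of 36 cytosolic ribosomal protein genes tested, 11 were lower (30.6%, against 12.1% of all genes) and 1 was higher (2.78%, against 28.8%), with a median of −0.13. Without dmso_poly_rep1 16 were lower and 1 was higher. RPS26 (−0.99 ± 0.17, adjusted p = 0.000552), RPL29 (−0.77), RPL17 (−0.68), RPS29 (−0.62), RPS27 (−0.59) and RPL41 (−0.57) were among the lower ones. RPL41 encodes the shortest ribosomal protein, and its log2 signal was 12.79 to 13.05 in total RNA and 12.02 to 12.86 on polysomes. RPL39, another very short one, had a difference of −0.80 ± 0.34 (adjusted p = 0.0721), which passed without dmso_poly_rep1 (−0.94, adjusted p = 0.0308) or without carbo_poly_022_rep2 (−0.97, adjusted p = 0.0245). RPL10A (0.33 ± 0.11, adjusted p = 0.0224) was the higher one, and it no longer passed without carbo_total_rep2 (0.27), carbo_total_101_rep1 (0.29) or dmso_total_rep1 (0.33), with adjusted p of 0.0616, 0.0655 and 0.0535. Many ribosomal protein genes have processed pseudogenes of near-identical sequence, whose signal the array may not separate.

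Of 25 listed symbols of other TOP mRNAs, 11 had a named probeset and 5 were tested. Of these 5, 3 were higher (60%, against 28.8% of all genes) and 0 lower (against 12.1%), with the same counts without dmso_poly_rep1. EEF1G, a subunit of elongation factor 1, had log2 signals of 11.10, 11.10, 10.81, 10.89 and 11.07 in total RNA and 11.40 to 11.68 on polysomes, with no overlap and a difference of 0.52 ± 0.09 (adjusted p = 0.000531). EEF2, the translocase of the ribosome, was higher by 0.28 ± 0.08 (adjusted p = 0.0159), again with no overlap, but within matched pairs its adjusted p was 0.0535, and after median centring it had 0.17 with an adjusted p of 0.143. The intermediate filament gene VIM (0.41) was the third, and lost its call without carbo_total_rep2 (0.38, adjusted p = 0.0519) or dmso_total_rep2 (0.40, adjusted p = 0.0544). VIM also lost it after median centring (0.31, adjusted p = 0.0975). EIF4B (0.05 ± 0.09) and BTF3 (0.16) did not pass.

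The start sequences of these genes were read from RefSeq (GRCh38.p14) to set the tract beside the measured difference. They are shown from 5 bases before the annotated start to 20 bases from it, with the run of C and T from the start in capitals. SNHG5, ZFAS1, RPL22L1 and RPL29 were lower on polysomes and EEF2 was higher, with EIF4B between them. RPL22L1 (−1.43), a paralog of RPL22, ZFAS1 and EIF4B were chosen after their values were seen.
SNHG5, chr6:85678714-85678738, minus strand: tcggtCTTTTacgtcggccttcgcg
ZFAS1, chr20:49278637-49278661, plus strand: tcgttCTTTCgcgtctgcggtgccc
RPL22L1, chr3:170870176-170870200, minus strand: gcttcCTCTCTgctctcgcggccga
RPL29, chr3:51995876-51995900, minus strand: cctttCTCTTCCggttctaggcgct
EIF4B, chr12:53006451-53006475, plus strand: cgggtCTTTTgcgttctctttccct
EEF2, chr19:3985444-3985468, minus strand: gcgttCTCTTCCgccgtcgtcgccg
RPL29 and EEF2 share the same 7 letters at the start, with differences of −0.77 and 0.28. The match is to an annotated start and not to a mapped transcript end.

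Across the genes tested, a start with C followed by at least 4 letters that are each C or T, on the strand of the gene, was present in 322 of 6025 start windows (5.34%), against 4.04% of all 27305 windows. Of 318 protein-coding genes with it, 75 were higher and 49 lower with a median of 0.09, and of 5585 without it, 1711 were higher and 617 lower with a median of 0.12. Among ribosomal protein genes the medians were −0.20 with the tract (22 genes) and −0.10 without it (11 genes). GC content of the 300 bases around the start gave a Spearman correlation of 0.09 with the difference over 5903 protein-coding genes, which share the arrays and are not independent.

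Of 10 mRNAs with regulatory uORFs, 4 were lower (40%, against 12.1% of all genes) and 1 was higher (10%, against 28.8%), with a median of −0.33. Without dmso_poly_rep1 6 were lower and 1 was higher. ATF4, a transcription factor of the integrated stress response, had log2 signals of 8.54, 8.37, 7.98, 8.04 and 8.52 in total RNA and a lowest, median and highest of 7.12, 7.63 and 8.33 on polysomes. The overlap came from dmso_poly_rep1 alone, and the difference was −0.65 ± 0.16 (adjusted p = 0.0052). SAT1 (−0.90), which acetylates polyamines, ATF5 (−0.49) and IFRD1 (−0.41) were lower. The polyamine enzymes AMD1 (−0.36, adjusted p = 0.0758) and ODC1 (−0.24, adjusted p = 0.107) did not pass, except that without dmso_poly_rep1 their adjusted p were 0.0156 and 0.0419. AMD1 also passed without carbo_total_101_rep1 (−0.44, adjusted p = 0.0498). SMAD7 (0.41, adjusted p = 0.0318) was the higher one and lost its call without carbo_poly_rep2, carbo_poly_rep3, carbo_total_rep3 or carbo_total_101_rep1, at differences of 0.36, 0.36, 0.33 and 0.33.

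Initiation factors and their regulators had members in both directions, but most were not measured. Of 41 listed, 14 had a named probeset and 10 were tested. Of these 10, 4 were lower (40%, against 12.1% of all genes) and 2 higher (20%, against 28.8%). DENR, which recycles ribosomal subunits and promotes reinitiation after uORFs, had a log2 difference of −0.90 ± 0.20 (adjusted p = 0.00272), and EIF5B, the GTPase of subunit joining, had −0.60 ± 0.16 (adjusted p = 0.0074). EIF4EBP2 (−0.50), a repressor of cap-dependent initiation, and EIF1 (−0.29) were the others. EIF5B lost its call in carboplatin arrays alone (−0.53, adjusted p = 0.0702), and in those without a code it had −0.195 (adjusted p = 0.363). EIF4H (0.52 ± 0.10, adjusted p = 0.00109), a cofactor of the helicase eIF4A, was higher without overlap of the groups. EIF6 (0.30, adjusted p = 0.0176) was higher too, but without dmso_total_rep2 it had 0.22 with an adjusted p of 0.0724.

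Lists of metabolic enzymes lay mostly on the higher side. Of 22 genes of cholesterol and fatty acid synthesis, 12 were higher and 1 lower, against 28.8% and 12.1% of all genes, with a median of 0.42, and without dmso_poly_rep1 12 were higher and 2 lower. PMVK (0.69), EBP (0.65) and SREBF1 (0.66), the last a transcription factor that drives the pathway, had the largest differences among the called genes, and FASN, the fatty acid synthase, had 0.52 ± 0.15 (adjusted p = 0.0126), or 0.41 with an adjusted p of 0.0524 after median centring. IDI1 (−0.46, adjusted p = 0.0234) went the other way, and lost the call without carbo_total_rep3 (−0.41), dmso_total_rep1 (−0.35) or dmso_total_rep2 (−0.42). Of 17 aminoacyl-tRNA synthetases, 9 were higher and 0 lower (13 and 0 without dmso_poly_rep1), with a median of 0.28, led by AARS1 (0.64), MARS1 (0.63) and VARS1 (0.63). Of 8 glycolytic genes, 4 were higher and 0 lower: HK1 (0.68), HK2 (0.62), GPI (0.59) and PGK1 (0.30). GAPDH (0.11 ± 0.08) did not pass. Its log2 signal was 7.46 to 7.68 in total RNA and 7.54 to 7.72 on polysomes, against 11.36 to 11.57 in total RNA for GPI. How much of the GAPDH mRNA its probeset reads was not tested.

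Mitochondrial proteins made in the cytoplasm were spread widely. Of 68 mitochondrial ribosomal protein genes, 24 were higher (35.3%, against 28.8% of all genes) and 5 lower (7.35%, against 12.1%) with a median of 0.19. Without dmso_poly_rep1 29 were higher and 8 lower, where 32.8% and 15.8% of all genes were. MRPL58 (0.96 ± 0.16, adjusted p = 0.000436), a peptidyl-tRNA hydrolase built into the mitochondrial ribosome, and MRPL15 (0.79) were at the top. MRPL42 had 9.07, 9.47, 8.66, 8.95 and 9.38 in total RNA and 7.63 to 8.53 on polysomes, separate groups in the opposite direction with a difference of −1.08 ± 0.16 (adjusted p = 0.000245), and MRPL11 (−0.69) was lower as well. Of 91 listed symbols of nuclear-encoded respiratory chain genes, alternative names included, 15 had a named probeset and 12 were tested. Of these 12, 5 were higher and 0 lower (6 and 1 without dmso_poly_rep1). They were led by UQCRC1 (0.75 ± 0.10, adjusted p = 0.000171) and CYC1 (0.57) of complex III and COX4I1 (0.52) of complex IV. COX7C (−0.32, adjusted p = 0.119) and COX6B1 (−0.23) did not pass, though COX7C passed without carbo_total_rep2 (−0.43) or dmso_poly_rep1 (−0.40).

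Genes of mitosis and of DNA repair had members in both directions. Of 28 mitotic genes, 5 were higher (17.9%, against 28.8% of all genes) and 2 lower (7.14%, against 12.1%), and without dmso_poly_rep1 8 were higher and 2 lower. CCNB1, the cyclin of CDK1, had 9.57, 9.54, 8.99, 9.65 and 9.38 in total RNA and 9.79 to 10.28 on polysomes, with a difference of 0.58 ± 0.12 (adjusted p = 0.00179) and no overlap. AURKB (0.54), CDC20 (0.44), PLK1 (0.44) and KIF2C (0.43) were the other higher genes, and CENPA (−0.57), the centromeric histone, was lower. CDK1 itself had −0.25 ± 0.09 (adjusted p = 0.0356), a call that did not hold within matched pairs (adjusted p = 0.104) or without any of 7 single arrays, where differences lay between −0.26 and −0.22. Of 38 DNA repair genes, 6 were higher and 6 lower (15.8% each), and without dmso_poly_rep1 9 were higher and 6 lower. The base excision enzyme UNG (0.77 ± 0.11, adjusted p = 0.000186), the flap endonuclease FEN1 (0.64) and RAD54L (0.63) were higher. XRCC2 (−0.75) and PALB2 (−0.69), both of homologous recombination, together with TIPIN (−0.67), RAD17 (−0.62), XRCC4 (−0.57) and NEIL3 (−0.47) were lower.

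Among inhibitors of apoptosis, 3 of 15 were lower (20%, against 12.1% of all genes) and 2 higher (13.3%, against 28.8%). Without dmso_poly_rep1 the counts were 3 and 3. CAAP1 (−0.76 ± 0.14, adjusted p = 0.000815), BIRC2 (−0.53), a ubiquitin ligase, and BCL2L1 (−0.37) were lower, and MCL1 (0.39 ± 0.12, adjusted p = 0.0157), a short-lived BCL2 relative, was higher. XIAP (0.07 ± 0.14) and BIRC5 (0.09 ± 0.20) did not pass. MCL1 lost its call after median centring (0.29, adjusted p = 0.0904).

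Splicing factors (12 higher and 7 lower of 39), ZNF zinc finger genes (49 and 42 of 241), very long proteins (8 and 2 of 32), immediate early genes (6 and 0 of 22), selenoproteins (4 and 3 of 14), chaperones (1 and 0 of 9) and collagens, laminins and integrins (2 and 0 of 6) completed the lists. Over all genes 28.8% were higher and 12.1% lower. The higher shares of splicing factors (30.8%), selenoproteins (28.6%), immediate early genes (27.3%) and very long proteins (25%) lay near that background. Zinc finger genes had 20.3% higher and 17.4% lower. Without dmso_poly_rep1 3 chaperones were higher and 0 lower, 7 immediate early genes were higher and 2 lower, 3 collagens, laminins and integrins were higher and 0 lower, and 52 zinc finger genes were higher and 51 lower. Over all genes the shares without this array were 32.8% higher and 15.8% lower. In the splicing list U2AF2 (0.84 ± 0.10, adjusted p = 8.3e-05), which recognises the polypyrimidine tract of introns, and SNRPD1 (−0.86 ± 0.20, adjusted p = 0.00445), a core protein of spliceosomal particles, lay far apart. ZNF282 (0.85) was the highest zinc finger gene among those named, and the ZNF symbols included the pseudogene ZNF271P (−0.96) and the lncRNA ZNF667-AS1. TLN1 (0.62), a long cytoskeletal protein, was higher and AKAP9 (−0.56), a long scaffold of the Golgi, was lower. AKAP9 lost its call in carboplatin arrays alone (−0.44, adjusted p = 0.156) and without the arrays that carry a code (−0.44, adjusted p = 0.0527). In the pair of carbo_poly_rep2 it differed by 0.31.

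**Figure D4:**
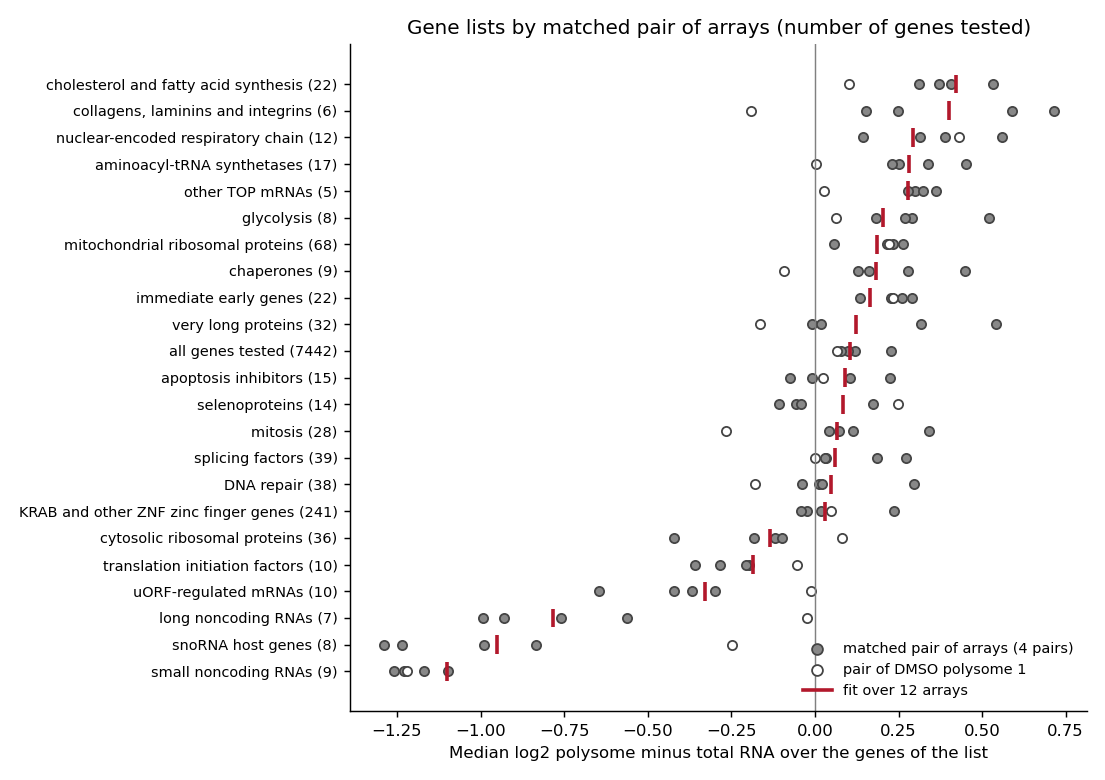
Median log2 polysome minus total RNA over the tested genes of each list (number of genes in parentheses). Grey points are 4 matched pairs of arrays, the open circle the pair of DMSO polysome 1 and the red line the fit over 12 arrays. Small noncoding RNAs lie between −1.26 and −1.10 in all 5 pairs, while snoRNA host genes are at −0.25 in the pair of DMSO polysome 1.

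Of 136 miRNA genes with a probeset above the filter, 9 were higher (6.62%, against 28.8% of all genes) and 15 lower (11.0%, against 12.1%), with a median of 0.00. MIR574 (−1.09 ± 0.16, adjusted p = 0.000224) was the lowest, named after its value was seen, and MIR622 (0.99 ± 0.14, adjusted p = 0.000205) the highest. Their mature sequences from RefSeq are given to show what the names stand for, with the seed (bases 2 to 8) in capitals. The 3 seeds differ.
hsa-miR-574-5p, chr4:38868056-38868078: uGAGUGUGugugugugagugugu
hsa-miR-574-3p, chr4:38868092-38868113: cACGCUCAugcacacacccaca
hsa-miR-622, chr13:90231242-90231262: aCAGUCUGcugagguuggagc
MIR574 had log2 signals of 9.94, 9.84, 10.97, 10.01 and 10.09 in total RNA, the value of 10.97 on carbo_total_rep2, and 8.80 to 9.32 on polysomes. MIR622 had 7.17, 7.29, 6.80, 6.91 and 7.10 in total RNA and 7.68 to 8.45 on polysomes. Both had separate groups, and whether the signal came from a host transcript, a precursor or the mature miRNA was not tested.

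Whether carboplatin altered the fraction difference was tested as an interaction. It passed for 0 of 7442 genes by limma (0%), with 62 genes at an unadjusted p under 0.05 and a smallest adjusted p of 0.9996. Without dmso_poly_rep1 there were 0 calls and 211 genes at an unadjusted p under 0.05 (smallest adjusted p = 0.6424). Chance alone would give about 372 such genes, more than either count. The 0 calls therefore do not show that carboplatin left the fraction difference unchanged. Of the 3 genes with the smallest interaction p, MIR2392 and MIR3621 had fraction differences of −0.01 and −0.23, neither passing, and the third is not reported here. In DMSO arrays alone, 3 against 2, 0 genes passed by limma and 1717 had an unadjusted p under 0.05, and in carboplatin arrays alone, 4 against 3, 1407 were higher and 501 lower. A count of 0 in the smaller set does not show that the fractions differed less there.

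The arrays of cells with INK128 alone, an inhibitor of mTOR, share no array with the 12. They were 3 with polysome RNA and 2 with total RNA, in which 631 genes were higher and 607 lower (16.6% called in either direction). The methods give no separate exposure time for INK128 alone. The differences in both sets correlated across genes with a Pearson r of 0.87. Of the 2147 genes higher without INK128, 97.1% had the same sign with it, and of the 902 lower genes 98.4%, against 83.0% of all genes. The difference between the sets was tested as an interaction over 17 arrays, which was added after the data were seen. It passed for 1 of 7442 genes (0.0134%), with 198 at an unadjusted p under 0.05. Chance alone would give about 372, so the few calls do not show that the other genes kept their difference. The 1 gene that passed was EEF1G, with a log2 difference of 0.52 without INK128 and −0.70 with it, a change of −1.22 ± 0.18 (adjusted p = 0.0206). The medians of the cytosolic ribosomal proteins were −0.13 and −0.42, and those of the other TOP mRNAs 0.28 and −0.07. Other lists also had unlike medians. They were −0.33 and −0.66 for uORF mRNAs, −1.10 and −0.58 for small noncoding RNAs and 0.12 and 0.36 for very long proteins. In the 5 pairs without INK128 medians ranged from −0.42 to 0.08 for ribosomal proteins and 0.03 to 0.36 for other TOP mRNAs. The ranges were −0.65 to −0.01 for uORF mRNAs, −1.26 to −1.10 for small noncoding RNAs and −0.16 to 0.54 for very long proteins. The INK128 medians of ribosomal and very long proteins lay within these ranges. Those of the other lists lay outside, for uORF mRNAs only just. The median of all genes was 0.11 in both sets, and no list was tested.

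**Figure D5:**
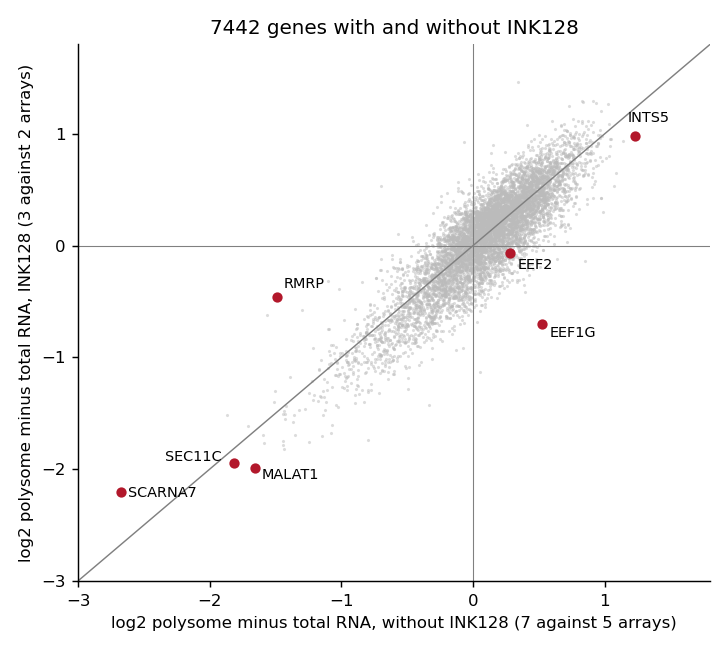
Log2 polysome minus total RNA of 7442 genes (grey points) without INK128 (x axis, 7 against 5 arrays) and with INK128 (y axis, 3 against 2 arrays), with the line of equality and 7 genes in red. EEF1G lies at 0.52 and −0.70, and SCARNA7 and SEC11C are low in both.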

How the data were processed

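Total and polysome RNA of OVCAR-3 cells was hybridised to Affymetrix Human Gene 2.0 ST arrays. The deposited values are log2 signals that the authors made with RMA in Expression Console 1.4.1 (background correction, quantile normalization and summarization). The methods describe a quantile normalization apart for each fraction for the comparison of treatments, and whether the deposited table holds those values is not stated. Repeating it within each fraction gave 2178 higher and 931 lower genes, and over the 12 arrays 2013 and 1016. Scanner intensities were not used here, and precision is bounded by how few arrays there are. Of 53617 probesets 16098 carried 1 symbol, 0 several and 37519 none. The probeset with the highest mean per symbol gave 14884 genes, and those with a mean of at least 6.54, the median, were tested. Fraction was fitted with limma 3.58.1 (R 4.3.3), with treatment as covariate and Benjamini-Hochberg adjustment. In simulated data of 7442 genes for this comparison, 122 of 200 genes changed by a log2 of 0.5 and 195 of 200 changed by 1 were recovered, with 8 false calls each. The simulated noise was independent between genes and arrays, and far fewer genes were changed than the 41% called here. These shares therefore check the code and do not give the power of the real comparison. Matched pairs were found by comparing arrays with the study's datasets. The correlation of deviations in the 5 pairs was 0.02 to 0.54. The methods describe 2 independently performed sets, fewer than the 3 or 4 polysome arrays per treatment fitted here, and the labels do not tie arrays to a set. Arrays may therefore share a culture, and p-values measure only the spread between these arrays and may be too small.

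The members and gene lists were chosen with earlier results of these data known. Genes were named by rule: the 12 highest and 12 lowest among genes passing with and without dmso_poly_rep1, up to 3 called members per list with the largest difference and up to 2 of opposite sign, a fixed set of 34 genes where tested (16), and the 3 smallest interaction p. Other genes named, among them CHASERR, MIR574, ZFAS1, EIF4B, RPL22L1 and further members of the lists, were chosen after their values were seen. Of 27 lists, 23 had at least 3 tested genes and 3 had 0. Among the latter, mitochondrial genome mRNAs and proteasome subunits had 0 genes with a named probeset. Histones had 1, which did not pass the filter. The iron-responsive list had 1 tested gene, EPAS1 (0.32, adjusted p = 0.0429), which lost its call without any of 8 single arrays. Many other listed genes had no named probeset. One was found for 9 of 31 listed chaperones and for 6 of 44 listed collagens, laminins and integrins. Alternatives were other filters, scalings, blocks, weights, array sets and each array left out.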

Additional observations from a re-analysis of the deposited data

Results flagged for a closer look

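Samples far from the others of their fraction were searched for among the named genes and in the array score, in 248 groups of values, of which 16 were flagged by their gap to the nearest other array relative to the range of the group. Chance alone flags about 1 in 20 groups. On carbo_total_rep2, total RNA was low for AP1AR (9.66), CAAP1 (8.66), CHASERR (7.65), SAT1 (7.09) and TXNRD3 (5.63) and high for MIR574 (10.97). On carbo_total_rep3 it was low for CANX (12.15) and RPL29 (8.18), on dmso_total_rep2 high for LDHB (7.42), and on carbo_total_101_rep1 high for ZNF667-AS1 (9.16). On dmso_poly_rep1, polysome RNA was high for GAS5 (8.37) and ZFAS1 (9.88) and low for CANX (11.87). On carbo_poly_rep2 it was low for PGAM1 (8.59) and PIM1 (8.11), and on carbo_poly_022_rep2 low for RMRP (8.69).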

How the results depend on the processing

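The main counts, 3049 genes in all with 2147 higher and 902 lower, were recomputed under each alternative. With a stricter filter 1597 passed (1118 and 479), with all probesets 7351 (3761 and 3590), after median centring 1373 were higher and 1363 lower, with array weights 4658 passed and 1736 were lower, a fit whose weights did not converge. With the replicate block by label number 1889 passed (1383 and 506). The 4 same-numbered pairs had correlations of deviations from −0.05 to 0.19, and 3 of them are also matched in the study's datasets, where DMSO total 2 is matched with DMSO polysome 3 instead. In this block 19 named genes lost their call. The block by matched pairs gave 2095 higher and 873 lower and changed the calls of CDK1, EEF2, EGR1, ELOVL6 and RPL39. DMSO arrays alone gave 0 calls in either direction, carboplatin arrays alone 1908 (1407 and 501), and adding the carboplatin replicate 1 arrays 1960, with 503 lower. Chosen after seeing the data, the carboplatin arrays without a code gave 1362 (993 and 369). Also chosen then, a covariate that set these arrays apart from all others, in place of treatment, gave 3579 (2497 and 1082). With a log2 difference of at least 0.6 as well, 849 passed (482 and 367). Leaving out each array gave 2520 to 3617 calls in all, 1842 to 2439 higher and 678 to 1178 lower. Median centring ended the calls of EEF2, EIF6, EPAS1, FASN, HSPA9, MCL1, MYC, RPL10A, SMAD7, TXNRD3 and VIM. List medians near 0 (zinc fingers, very long proteins, splicing, mitosis, DNA repair, apoptosis inhibitors, selenoproteins) changed sign under at least 1 alternative. No named gene changed sign with a call, and the interaction had 0 calls under every alternative. The median with the start tract minus that without it was −0.03 over 12 arrays. The comparison with protein length was not run, because no protein table was used here. The cause of these changes was not tested. Signal over background was not examined, since no scanner values were used.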

Other observations

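Gene families were also grouped by the letters of their symbols, a choice made after the values were seen and given as description, with no test. Over all genes 28.8% were higher and 12.1% lower. Without dmso_poly_rep1 these shares were 32.8% and 15.8%. Of 27 TRIM genes, most of them ubiquitin ligases, 15 were higher on polysomes (55.6%) and 0 lower, or 16 and 1 without dmso_poly_rep1, with a median log2 difference of 0.34, against 0.11 over all genes. TRIM28 (0.91), a corepressor of KRAB zinc finger proteins, TRIM65 (0.89) and TRIM27 (0.81) led, each with polysome arrays above all total arrays. Of 32 VPS genes of endosomal sorting, 15 were higher and 0 lower (median 0.26), led by VPS18 (0.86), VPS25 (0.73) and VPS33A (0.64). Of 25 DDX genes of RNA helicases, 11 were higher and 0 lower (median 0.30), led by DDX19A (0.77), DDX49 (0.68) and DDX56 (0.67), and without dmso_poly_rep1 16 and 0. Of 45 WDR genes, which encode WD repeat proteins, 22 were higher and 3 lower (median 0.23), led by WDR18 (0.77), WDR46 (0.71) and WDR91 (0.64).

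Other families lay below the median of all genes. Of 51 RNF genes, which are ubiquitin ligases like the TRIM genes, 10 were higher and 4 lower with a median of −0.08. Without dmso_poly_rep1 12 were higher and 13 lower, where 32.8% and 15.8% of all genes were. Of 30 CEP genes of the centrosome, 6 were higher and 7 lower (median −0.06). The mitochondrial ribosomal proteins had medians above that of all genes, 0.24 for MRPS and 0.15 for MRPL. Of 43 MRPL genes, 14 were higher (32.6%) and 5 lower (11.6%), near the 28.8% and 12.1% of all genes. Of 25 MRPS genes, 10 were higher (40%) and 0 lower. Without dmso_poly_rep1 the counts were 15 and 7 for MRPL and 14 and 1 for MRPS. No test of these differences between families was run.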
